A study of Homo sapiens with 18 samples.

Results

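Genes that respond differently to the phospholipid DLPC and to the small molecule 10CA were sought in HepG2 cells, a human liver tumour line, by subtracting the response to 10CA from the response to DLPC. The difference is (DLPC minus ethanol) minus (10CA minus DMSO) on the log2 scale, so that a positive value means that DLPC moved a gene up more, or down less, than 10CA did. It uses 12 of the 18 libraries of the series: 3 of DLPC (dilauroylphosphatidylcholine) at 100 µM, 3 of its vehicle ethanol at 0.1%, 3 of 10CA at 10 µM and 3 of its vehicle DMSO at 0.1%. All groups were HepG2 cells, with no genotype change in the labels, treated in DMEM with charcoal-stripped serum, and the length of treatment is not given in the sources used here. The doses differ and so do the vehicles, so the values compare the treatments as given and not the compounds at matched dose. The labels do not tie a vehicle to a compound, and ethanol for DLPC and DMSO for 10CA were taken from knowledge of the study. The replicate numbers come from the titles, which do not say whether replicates were separate cultures, so the p-values reflect the spread among the libraries at hand, and that spread may be technical only.

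DLPC and 10CA both belong to a study of LRH-1 (NR5A2), an orphan nuclear receptor of liver whose pocket holds phospholipids and which acts on genes for bile acids, sterols and steroid hormones. DLPC is a known phospholipid agonist of LRH-1, and 10CA is a synthetic ligand named here only by its code. Sterol and fatty acid synthesis in hepatocytes are driven by the SREBP transcription factors, which are released from the endoplasmic reticulum when membrane sterol falls. Inflammatory genes such as adhesion molecules and chemokines are driven by NF-κB, a family of transcription factors held in the cytoplasm by IκB proteins.

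Total counts ran from 28135967 to 34579945 in the 12 libraries. The 15 hepatocyte and HepG2 markers summed to 53541 to 58776 CPM (counts scaled to the library total) with DLPC, 49986 to 56712 CPM with ethanol, 52091 to 56699 CPM with 10CA and 52419 to 54842 CPM with DMSO. Markers of stromal, endothelial and blood cells summed to 482 to 553 CPM with DLPC, 460 to 507 CPM with ethanol, 432 to 478 CPM with 10CA and 435 to 455 CPM with DMSO. LYZ (336 CPM) and CD68 (92.2 CPM) made up most of that sum, the endothelial receptor KDR had 0 counts in all libraries, and none of the 9 tested markers of these cells was called in the difference.

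NR5A2, the gene of LRH-1 itself (chromosome 1, 200027602 to 200177424, GRCh38), was low in every group. Its level was 4.39, 3.60 and 4.03 CPM in the 3 DLPC libraries, 3.31, 3.38 and 5.17 CPM with ethanol, 3.62, 4.85 and 4.44 CPM with 10CA and 3.97, 3.11 and 4.48 CPM with DMSO. The groups overlapped. Its difference of responses was -0.12 (95% interval -0.61 to 0.37) and did not pass the test (edgeR's quasi-likelihood test, p adjusted by Benjamini-Hochberg over all genes, adjusted p = 0.877), and the sign turned in several fits that left out libraries.

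A difference passed the test for 250 genes, 1.69% of the 14797 tested (adjusted p under 0.05, edgeR's quasi-likelihood test with the replicate number as a block). The DLPC response stood above the 10CA response for 171 genes (1.16%) and below it for 79 (0.534%), and these are named as called higher and called lower. Ranges in parentheses after a difference are its 95% interval, not adjusted for the number of genes. The median size of a called difference was 0.33 on the log2 scale, 59 exceeded 0.5 and 7 exceeded 1, so most were differences of modest size. Of the responses themselves, 997 genes passed for DLPC against ethanol (6.74%; 533 higher, 3.6%, and 464 lower, 3.14%). For 10CA against DMSO 32 passed (0.216%), 19 higher (0.128%) and 13 lower (0.0879%). For ethanol against DMSO 18 passed (0.122%), 6 higher (0.0405%) and 12 lower (0.0811%). Without the block the test called 16 of these 250 genes and no others, 10 higher and 6 lower (1088 at an unadjusted p under 0.05, against 1979 with the block). Leaving out a library lowered the count by more than 1.5 times for 8 of the 12: to 139 without DMSO 2, 166 without DMSO 3, 161, 163 and 139 without 10CA 1, 2 and 3, 151 without ethanol 2, and 152 and 150 without DLPC 1 and 2.

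Most of the called differences lay in the response to DLPC. The DLPC response was the larger in size for 203 of the 250 genes and the 10CA response for 47, with median sizes of 0.26 and 0.091. Both responses pointed in opposite directions for 195 genes (135 higher, 60 lower) and in the same direction for 55. Calling genes by the size of the difference itself favours responses of opposite sign, so these counts do not describe genes at large. By each response's own test, 201 passed with DLPC alone, 10 with 10CA alone, 4 with both and 35 with neither. Across the 10691 genes above 5 CPM the responses to DLPC and to 10CA, which share no library, had a Pearson correlation of 0.218, and genes are not independent replicates. Of the genes called in each response, 13 were in both, 1.304% of those of DLPC and 40.6% of those of 10CA, and 9 of the 13 had the same sign.

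**Figure D1:**
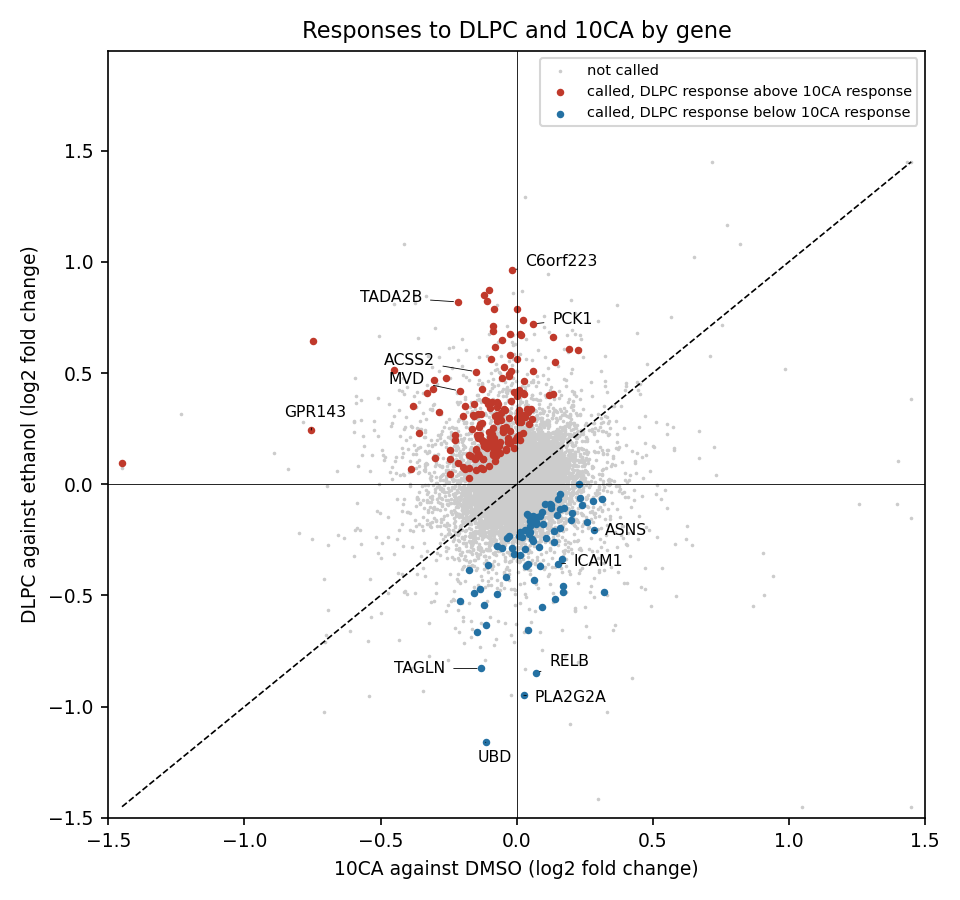
Each point is a gene with a mean of at least 1 CPM, with its log2 fold change for 10CA against DMSO on the horizontal axis and for DLPC against ethanol on the vertical axis; values beyond the axes are drawn near their edge, and red and blue points are genes called higher and lower in the difference. The red and blue points spread along the vertical axis around 0 on the horizontal one, with UBD, at -1.16 for DLPC and -0.11 for 10CA, among the lowest.

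Gene groups differed in direction. Genes of cholesterol synthesis and uptake, the sterol list, were called higher most often (19 of 24 tested, 0 lower). Fatty acid and triglyceride synthesis followed in number (8 of 23, 0 lower). NF-κB genes (0 higher, 5 lower of 22) and ATF4 targets (0 higher, 4 lower of 27) stood on the other side. Of all tested genes 1.16% were called higher and 0.534% lower. The median difference was 0.33 for the sterol list, 0.20 for fatty acid synthesis, -0.14 for ATF4 targets and -0.22 for NF-κB genes, against 0.0021 over all tested genes.

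**Figure D2:**
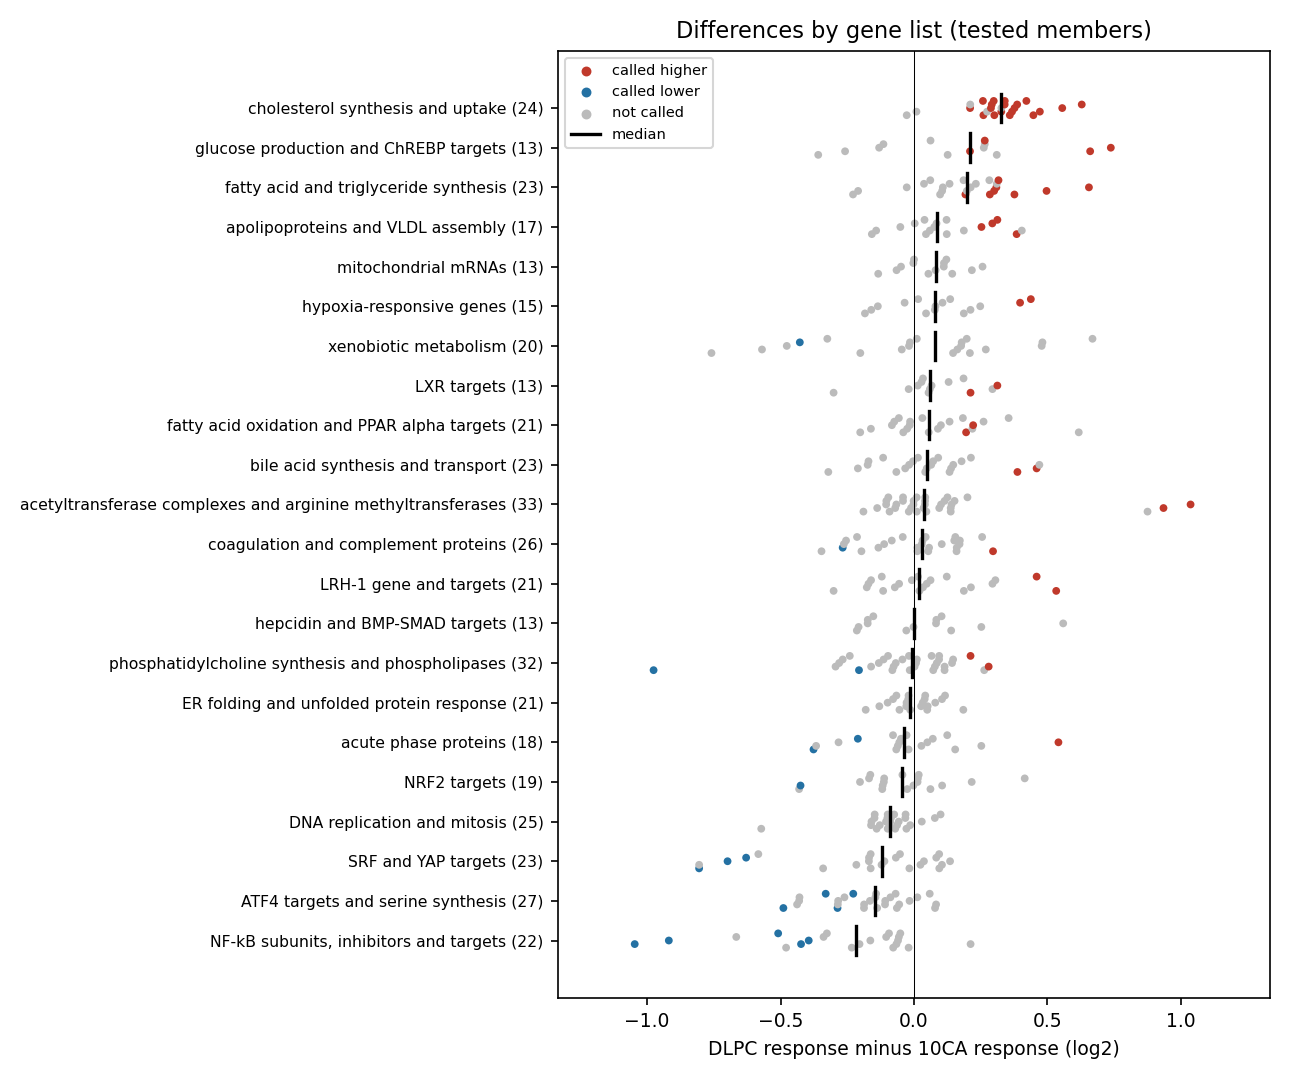
Each row is a gene list with its number of tested members, and each point is a member's difference of responses (log2, DLPC minus 10CA); red and blue mark called members, grey the others, and black bars the medians. The sterol list lies almost wholly right of 0 with a median of 0.33 and the NF-κB list left of it with a median of -0.22; CXCL2, at -3.71 and not called, lies outside the axis.

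Enzymes of cholesterol synthesis were higher with DLPC than with ethanol in most cases, while with 10CA their values lay mostly a little under those with DMSO and seldom passed. MVD, which makes isopentenyl diphosphate (chromosome 16, 88651935 to 88663161, GRCh38), had 447, 438 and 411 CPM in the DLPC libraries, 336, 328 and 305 CPM with ethanol, 272, 293 and 281 CPM with 10CA and 305, 353 and 321 CPM with DMSO. Every DLPC library lay above every ethanol library and every 10CA library below every DMSO library. The response was 0.42 to DLPC (SE 0.046, adjusted p = 6.95e-06) and -0.21 to 10CA (SE 0.046, adjusted p = 0.0635). The difference was 0.63 (SE 0.065, 95% interval 0.49 to 0.76, adjusted p = 2.20e-05 by edgeR's quasi-likelihood test).

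DHCR7, which carries out the last reduction to cholesterol (chromosome 11, 71428193 to 71452868), had 948, 857 and 850.3 CPM with DLPC, 715, 632 and 629 CPM with ethanol, 604, 593 and 571 CPM with 10CA and 641, 661 and 628 CPM with DMSO. Again neither pair of groups overlapped, and DLPC was the high group. Its difference was 0.56 (0.43 to 0.68, adjusted p = 4.31e-05 by edgeR's quasi-likelihood test). LSS, the lanosterol synthase, averaged 606 ± 38.4 CPM with DLPC, 489 ± 39.1 CPM with ethanol, 426 ± 26.2 CPM with 10CA and 477 ± 24.3 CPM with DMSO (SD, n = 3 each). Its DLPC libraries stood above the others and its 10CA libraries overlapped those of DMSO, with a difference of 0.47 (0.36 to 0.59). The early enzymes HMGCS1 (0.42) and ACAT2 (0.34), the cytosolic thiolase, were called higher too. FDFT1, the squalene synthase, differed by 0.36, and SREBF2, which encodes the sterol-sensing factor SREBP2, by 0.21.

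EBP, a sterol isomerase, was the member in which the 10CA side passed. It had 348, 358 and 348 CPM with DLPC, 335, 333 and 336 CPM with ethanol, 300.2, 301 and 276 CPM with 10CA and 329, 349 and 323 CPM with DMSO. The 10CA libraries were the lowest. The response was 0.07 to DLPC (adjusted p = 0.306) and -0.19 to 10CA (adjusted p = 0.0359), both by edgeR's quasi-likelihood test. The difference was 0.26 (adjusted p = 0.0129 by edgeR's quasi-likelihood test). MVK, the mevalonate kinase, likewise had responses of nearly equal size and opposite sign, 0.22 to DLPC and -0.23 to 10CA, neither called alone. Members that did not pass included STARD4 (0.33), SC5D (0.27), CYP51A1 (0.21) and PMVK (-0.027). By the single responses, 18 of the 24 members passed with DLPC and 1 with 10CA, and the list medians were 0.23 and -0.084. Without the block 5 of the 19 calls were made, and without DMSO 2 there were 12.

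In fatty acid and triglyceride synthesis 8 of 23 members were called higher and 0 lower, against 1.16% and 0.534% of all tested genes. The largest difference of the list was that of ACSS2. ACSS2, the cytosolic acetyl-CoA synthetase (chromosome 20, 34872146 to 34927962), had 235, 209 and 206 CPM with DLPC, 171, 145 and 142 CPM with ethanol, 139, 135 and 121 CPM with 10CA and 154, 146 and 139 CPM with DMSO. The DLPC libraries were the highest of the 12, and the 10CA and DMSO libraries overlapped. The difference was 0.66 (SE 0.064, 95% interval 0.52 to 0.79, adjusted p = 1.36e-05 by edgeR's quasi-likelihood test), with 0.51 for DLPC and -0.15 for 10CA.

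ACLY, which cleaves citrate to acetyl-CoA, averaged 846 ± 36.8 CPM with DLPC, 671 ± 38.2 CPM with ethanol, 636 ± 22.98 CPM with 10CA and 655 ± 24.2 CPM with DMSO (SD, n = 3 each), a difference of 0.38 (0.27 to 0.48). FASN, the fatty acid synthase, differed by 0.50, the desaturases SCD and FADS1 by 0.31 and 0.19, and the acyl-CoA synthetases ACSL3 and ACSL4 by 0.30 and 0.28. For SCD, ACSL3 and ACSL4 the 10CA response was 0.0097, 0.038 and 0.12, none called. SREBF1, the gene of the lipogenic factor SREBP1, did not pass (0.19, 0.071 to 0.30), nor did the triglyceride synthase DGAT2 (-0.027, -0.12 to 0.066). With DLPC 14 of the 23 members passed, and with 10CA 0 passed. The count of 8 became 2 without the block and 5 without DMSO 2 or without DLPC 1.

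In the list of glucose production and ChREBP targets 4 of 13 members were called higher, 0 lower, with a list median of 0.21. The shares of all tested genes were 1.16% and 0.534%. G6PC, the glucose-6-phosphatase (chromosome 17, 42900797 to 42913369), had 53.7, 29.3 and 41.5 CPM with DLPC, 41.4, 20.8 and 32.1 CPM with ethanol, 25.1, 17.5 and 20.8 CPM with 10CA and 31.04, 22.7 and 25.8 CPM with DMSO. Library 2 was the lowest in every group, so the groups overlapped, although within each number DLPC was above ethanol and 10CA below DMSO. The difference within numbers 1, 2 and 3 was 0.68, 0.87 and 0.68, and the fit gave 0.74 (SE 0.12, adjusted p = 0.00251 by edgeR's quasi-likelihood test). PCK1, which starts gluconeogenesis from oxaloacetate, had 20.97, 10.9 and 17.98 CPM with DLPC, 14.2, 6.33 and 9.88 CPM with ethanol, 10.1, 4.63 and 9.70 CPM with 10CA and 9.38, 5.15 and 8.67 CPM with DMSO. Here too number 2 was low in every group and DLPC was above ethanol within each number. The difference was 0.66 (0.37 to 0.95), with 0.72 for DLPC and 0.061 for 10CA. Both lost their call without the block (adjusted p = 0.710 for G6PC and 0.825 for PCK1 by edgeR's quasi-likelihood test), and the count of 4 was 1 without DMSO 3, 3 without DMSO 1 and 2 without each of the other libraries. The other called members, TKFC (0.21) and PKLR (0.27), the liver pyruvate kinase, were lost whichever library was left out.

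In the list of apolipoproteins and VLDL assembly 4 of 17 members were called higher, 0 lower, with a median of 0.085. For this list and those that follow, the shares of all tested genes were 1.16% higher and 0.534% lower. APOA5, which promotes hydrolysis of plasma triglyceride, had 355, 309 and 332 CPM with DLPC, 289, 242 and 272 CPM with ethanol, 266, 219.9 and 238 CPM with 10CA and 259, 246 and 255 CPM with DMSO. The DLPC libraries lay above all others. Its difference was 0.38 (0.27 to 0.50), that of APOC1 0.31 and that of APOA2, a protein of HDL, 0.25. No member was called without the block, and the count was 2 without DMSO 3 or 6 without DMSO 1. In the list of fatty acid oxidation and PPARα targets 2 of 21 members were called higher and 0 lower. ACAA1 (0.20), a peroxisomal thiolase, was among them and was called in 2 of 12 fits that left out a library. The list's count was 0 without the block, 0 without DMSO 2, 10CA 1, 10CA 2, 10CA 3, ethanol 2 or DLPC 1, and 1 without DMSO 3, ethanol 3, DLPC 2 or DLPC 3. The hypoxia-responsive PFKFB4 (0.44), a regulator of glycolysis, and NDRG1 (0.40) were also called higher, 2 of 15.

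NF-κB genes went the other way: 5 of 22 tested members were called lower and 0 higher, and 21 of the 22 had a negative difference. Of all 14797 tested genes 0.534% were called lower and 7316 had a negative difference. The count of 5 was 2, 3 and 3 without replicate number 1, 2 and 3. UBD, also called FAT10, a small modifier related to ubiquitin that cytokines induce (chromosome 6, 29555515 to 29559925), had the smallest p of all genes. Its level was 15.9, 18.7 and 15.6 CPM with DLPC, 34.5, 39.2 and 38.2 CPM with ethanol, 31.9, 37.6 and 29.4 CPM with 10CA and 32.7, 41.02 and 33.4 CPM with DMSO. Every DLPC library was below every other library, and the other groups overlapped. The response was -1.16 to DLPC (SE 0.06) and -0.11 to 10CA (SE 0.056), and the difference was -1.05 (95% interval -1.22 to -0.87, adjusted p = 5.72e-07 by edgeR's quasi-likelihood test).

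Promoter sequences of the called NF-κB members follow, because these genes were called lower together and each holds a match to the κB motif GGNNTTTCC, searched on both strands. They are RefSeq promoters on GRCh38.p14, 250 bases before to 50 after the gene start, on the gene's strand, with matches in capitals.
UBD chr6:29559683-29559982 minus strand: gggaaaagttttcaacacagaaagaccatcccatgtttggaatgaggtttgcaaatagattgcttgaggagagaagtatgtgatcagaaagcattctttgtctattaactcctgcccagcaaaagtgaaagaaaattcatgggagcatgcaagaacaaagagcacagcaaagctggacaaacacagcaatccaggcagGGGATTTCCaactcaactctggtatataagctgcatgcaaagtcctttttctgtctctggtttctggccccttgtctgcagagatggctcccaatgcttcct
ICAM1 chr19:10270870-10271169 plus strand: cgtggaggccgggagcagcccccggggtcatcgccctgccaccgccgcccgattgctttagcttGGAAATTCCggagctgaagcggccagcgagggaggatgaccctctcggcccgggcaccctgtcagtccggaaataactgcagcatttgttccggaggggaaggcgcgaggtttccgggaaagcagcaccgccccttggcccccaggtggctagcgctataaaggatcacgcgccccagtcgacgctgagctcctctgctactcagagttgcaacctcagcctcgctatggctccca
TNFAIP3 chr6:137867009-137867308 plus strand: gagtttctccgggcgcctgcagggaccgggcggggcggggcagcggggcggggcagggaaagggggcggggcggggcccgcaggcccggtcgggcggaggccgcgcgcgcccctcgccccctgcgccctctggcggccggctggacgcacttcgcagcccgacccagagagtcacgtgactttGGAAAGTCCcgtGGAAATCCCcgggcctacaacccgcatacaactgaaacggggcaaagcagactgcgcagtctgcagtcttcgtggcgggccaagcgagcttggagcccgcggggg
NFKBIZ chr3:101827740-101828039 plus strand: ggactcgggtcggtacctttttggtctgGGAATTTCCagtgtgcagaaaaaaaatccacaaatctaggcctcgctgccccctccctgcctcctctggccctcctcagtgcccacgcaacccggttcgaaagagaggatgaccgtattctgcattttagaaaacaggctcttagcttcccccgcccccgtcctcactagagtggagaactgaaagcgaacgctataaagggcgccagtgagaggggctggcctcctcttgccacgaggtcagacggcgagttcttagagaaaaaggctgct
The match began 52 bases before the start in UBD, 186 in ICAM1, 67 and 55 in TNFAIP3 and 222 in NFKBIZ. RELB, the other called member, had no entry matched. All 4 matched called members held the motif, as did 12 of the 20 tested members with a promoter (60%), 14.5% of genes called lower (8 of 55), 8.13% of genes called higher (10 of 123), 6.6% of tested genes and 6.26% of all 27305 promoters. The 4 list members are among those 8 genes called lower. In the sterol list, called the other way, 3 of 13 called members (23.1%) and 17.6% of tested members held it too. The list names genes known for NF-κB control, and a match is a description, not a binding site.

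ICAM1, an adhesion molecule for leukocytes (chromosome 19, 10270835 to 10286615), was the called member whose groups did not overlap on either side. It had 88.4, 78.3 and 84.8 CPM with DLPC, 106, 107 and 109 CPM with ethanol, 112, 106 and 119 CPM with 10CA and 99.6, 99.4 and 104 CPM with DMSO. The DLPC libraries were the lowest and the 10CA libraries lay above those of DMSO. The response was -0.36 to DLPC (adjusted p = 1.43e-05) and 0.15 to 10CA (adjusted p = 0.130), a difference of -0.51 (-0.63 to -0.39, adjusted p = 7.16e-05; all by edgeR's quasi-likelihood test).

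RELB, the NF-κB subunit of the non-canonical pathway, is a low gene, with 4.10, 3.53 and 4.03 CPM with DLPC, 7.005, 7.12 and 6.90 CPM with ethanol, 6.04, 5.49 and 6.51 CPM with 10CA and 5.39, 6.92 and 4.91 CPM with DMSO. All DLPC libraries were below all others. Its difference was -0.92 (-1.29 to -0.55). Within each replicate number ethanol was above DMSO, so a part of this difference lay in the vehicles. NFKBIZ, an atypical IκB protein, had 8.63, 8.68 and 8.65 CPM with DLPC and 12.3, 12.1 and 12.2 CPM with ethanol, and 11.04, 11.3 and 11.3 CPM with 10CA and 11.3, 13.2 and 10.96 CPM with DMSO, a difference of -0.42 (-0.64 to -0.21). TNFAIP3, the inhibitor A20, differed by -0.39. For TNFAIP3 ethanol stood above DMSO by 0.26 (adjusted p = 0.0375 by edgeR's quasi-likelihood test), and DLPC against 10CA gave -0.14, not called. Members that did not pass include the subunits RELA (-0.057), NFKB1 (-0.066) and NFKB2 (-0.34), the inhibitor NFKBIA (-0.06) and the chemokine CCL20 (-0.10). CXCL2, near the limit of detection at 0, 0 and 0.0936 CPM with DLPC and 0.418, 0.487 and 0.503 CPM with ethanol, and 0.329, 0.183 and 0.131 CPM with 10CA and 0.174, 0.328 and 0.131 CPM with DMSO, did not pass (adjusted p = 0.121 by edgeR's quasi-likelihood test). Without the block UBD, ICAM1 and RELB were still called.

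**Figure D3:**
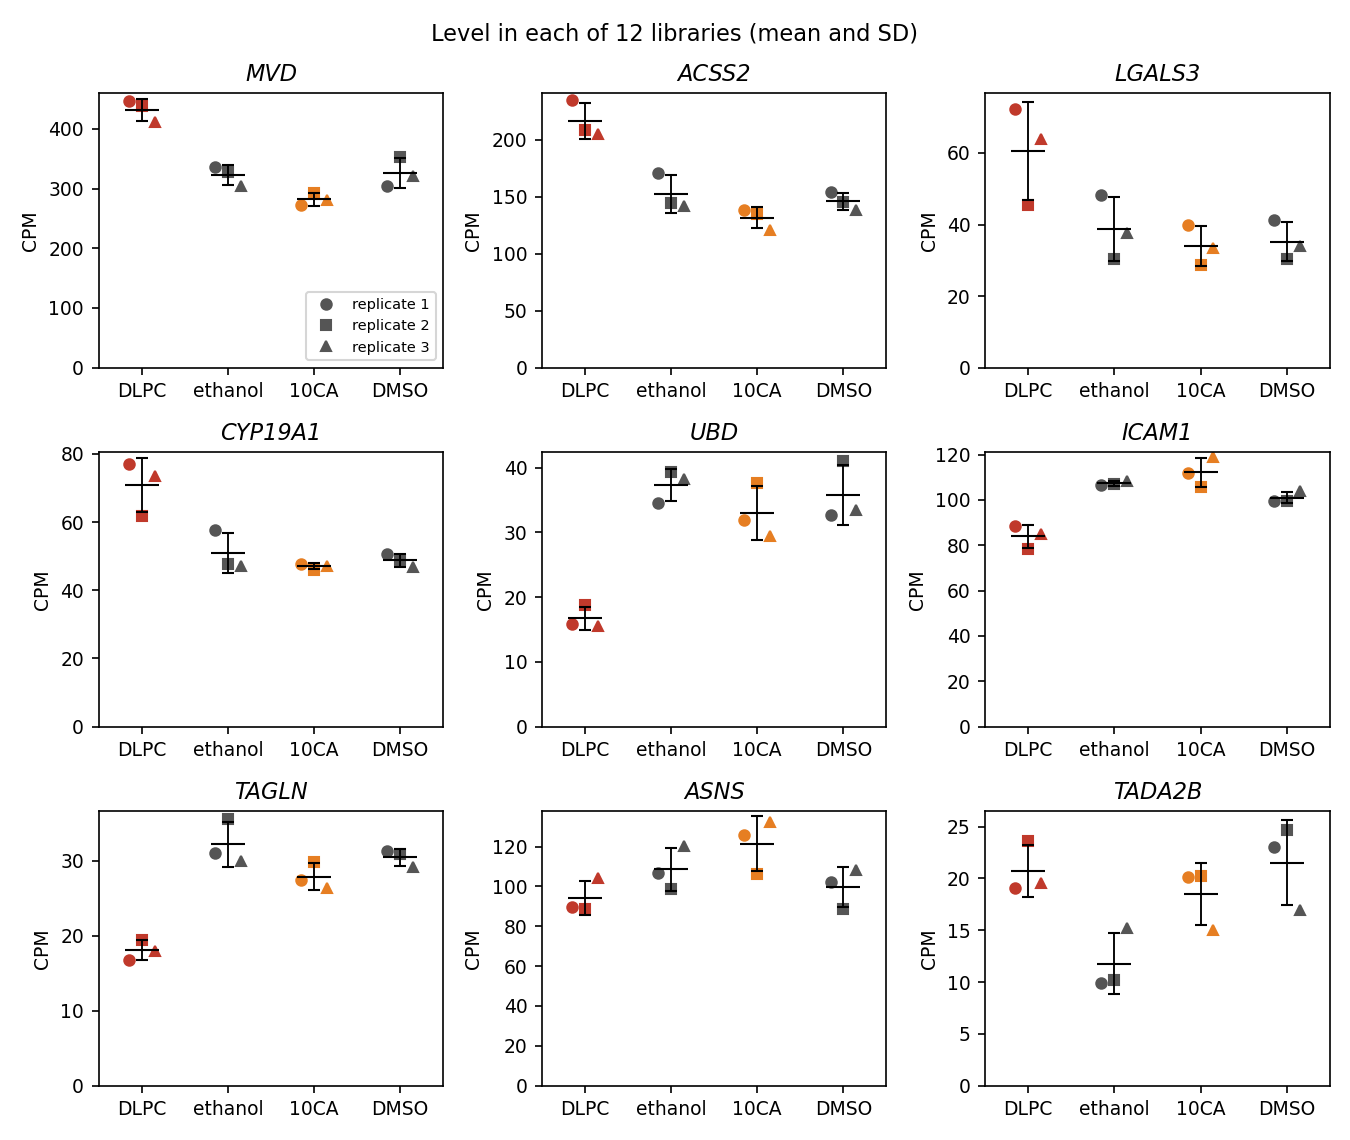
CPM of 9 genes in the 12 libraries, by treatment from left to right (DLPC, ethanol, 10CA, DMSO); points are libraries with the shape giving the replicate number, and bars are mean and SD (n = 3). MVD and ACSS2 are highest with DLPC, UBD, ICAM1 and TAGLN are lowest with DLPC, and in TADA2B the ethanol group stands apart, at 11.8 ± 2.96 CPM.

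Targets of ATF4, the transcription factor of the amino acid response, held 3 of the 4 genes in which both responses passed with opposite sign. ASNS, the asparagine synthetase (chromosome 7, 97852118 to 97872542), had 89.6, 88.7 and 104 CPM with DLPC, 107, 98.9 and 120.3 CPM with ethanol, 126, 106 and 132 CPM with 10CA and 102, 88.6 and 108 CPM with DMSO. Within every number DLPC was below ethanol and 10CA above DMSO, while libraries numbered 3 were the highest of each group and made the groups overlap. The response was -0.21 to DLPC (adjusted p = 0.00608) and 0.28 to 10CA (adjusted p = 0.00572), a difference of -0.49 (-0.62 to -0.36, adjusted p = 1.53e-04; all by edgeR's quasi-likelihood test).

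PSAT1, an aminotransferase of serine synthesis (chromosome 9, 78297143 to 78330093), had 636, 690.1 and 694 CPM with DLPC, 713, 735 and 775 CPM with ethanol, 755, 768 and 776 CPM with 10CA and 694, 694 and 686 CPM with DMSO. Neither pair of groups overlapped. Its difference was -0.29 (-0.37 to -0.20), made up of -0.14 with DLPC and 0.15 with 10CA. MTHFD2, a mitochondrial enzyme of folate metabolism, had 119.9, 121 and 126 CPM with DLPC, 128, 130.4 and 142 CPM with ethanol, 140.4, 138 and 139 CPM with 10CA and 123, 115 and 124 CPM with DMSO, again without overlap, and a difference of -0.33 (-0.44 to -0.23). STC2, a secreted glycoprotein, was the fourth called member: its DLPC response was 0.0023 and its 10CA response 0.23, a difference of -0.23, called in 5 of 12 fits that left out a library.

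Of the 27 tested members 23 had a negative difference and 4 a positive one (7316 and 7481 over all tested genes). ATF4 itself (-0.14), PHGDH (-0.14), the first enzyme of serine synthesis, and SHMT2 (-0.14) did not pass, and neither did TRIB3 (0.079) or DDIT3 (0.083), which are induced by strong stress. In these genes ethanol was above DMSO by 0.12 for ASNS, 0.10 for PSAT1 and 0.14 for MTHFD2, none called. DLPC against 10CA directly gave -0.37, -0.19 and -0.19, all called. Without the block none of the 4 was called, with an adjusted p of 0.0724 for MTHFD2 and 0.0764 for PSAT1 by edgeR's quasi-likelihood test. Among folding and stress genes of the endoplasmic reticulum, 0 of 21 were called in the difference, with a median of -0.014.

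The remaining gene with opposite called responses was PCYT2, which makes CDP-ethanolamine for phosphatidylethanolamine synthesis (chromosome 17, 81900965 to 81911464). It had 766, 761 and 733 CPM with DLPC, 684, 697 and 674 CPM with ethanol, 622, 623 and 615 CPM with 10CA and 685, 681 and 687 CPM with DMSO. No library of DLPC overlapped those of ethanol, nor any of 10CA those of DMSO, and the vehicles differed by 0.0015. Both responses were small and of equal size, 0.14 with DLPC and -0.14 with 10CA, giving 0.28 (0.20 to 0.36, adjusted p = 5.06e-04, and 0.0331 without the block, by edgeR's quasi-likelihood test).

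PLA2G2A, the secreted group IIA phospholipase A2, which cleaves phospholipids (chromosome 1, 19975431 to 19980416), was the strongest of the 32 phospholipid genes. It had 16.5, 14.5 and 16.3 CPM with DLPC, 29.5, 32.03 and 29.6 CPM with ethanol, 32.3, 22.8 and 24.98 CPM with 10CA and 28.6, 24.9 and 24.8 CPM with DMSO. All DLPC libraries were below all others. The response was -0.95 to DLPC and 0.027 to 10CA, a difference of -0.98 (SE 0.12, adjusted p = 1.54e-04 by edgeR's quasi-likelihood test). CHKA, the choline kinase that opens phosphatidylcholine synthesis, was called lower (-0.21) and LPCAT3, an acyltransferase that places polyunsaturated chains, higher (0.21). These both stand close to the threshold and were each called in 1 of the 12 fits without a library. The list had 2 called higher and 2 lower with a median of -0.0068, against 1.16% and 0.534% of all tested genes. PCYT1A (-0.13), PEMT (0.11) and CHPT1 (0.0078), which make phosphatidylcholine, did not pass.

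Among LRH-1 targets, CYP19A1 and NR0B2 were called higher, 2 of the 21 tested with NR5A2, and 0 lower, with a list median of 0.021. The shares of all tested genes were 1.16% and 0.534%. In several alternative fits, among them DESeq2 and limma-voom, 1 member of the list was called lower. CYP19A1, the aromatase (chromosome 15, 51208057 to 51338610), had 77.04, 61.9 and 73.4 CPM with DLPC, 57.5, 47.7 and 47.2 CPM with ethanol, 47.7, 46.1 and 47.3 CPM with 10CA and 50.6, 49.02 and 46.8 CPM with DMSO. The DLPC libraries were above all others and the remaining groups overlapped. It responded by 0.48 to DLPC and -0.054 to 10CA, a difference of 0.53 (SE 0.083, 95% interval 0.36 to 0.71, adjusted p = 0.00112 by edgeR's quasi-likelihood test).

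NR0B2, the corepressor SHP, which restrains bile acid synthesis (chromosome 1, 26911489 to 26913966), had 99.5, 84.9 and 117 CPM with DLPC, 73.7, 65.6 and 94.8 CPM with ethanol, 74.6, 66.9 and 90.3 CPM with 10CA and 75.1, 74.8 and 96.8 CPM with DMSO. Libraries numbered 3 were highest in every group, so levels overlapped, and within the numbers the difference was 0.44, 0.53 and 0.41. The fit gave 0.46 (0.28 to 0.64). In the bile acid list KLB, the beta-klotho co-receptor of FGF19, was also called higher (0.39), 2 of 23 with NR0B2, against 1.16% of all tested genes. CYP7A1, the first enzyme of the classical bile acid pathway, did not pass (-0.12, -0.31 to 0.082), nor did the sterol exporter ABCG5 (0.29), SHBG (0.31) or CCND1 (-0.18). Without the block neither CYP19A1 (adjusted p = 0.0926) nor NR0B2 (0.670) was called by edgeR's quasi-likelihood test, and both were called whichever library was left out. The LRH-1 motif CAAGGTCA, searched on both strands, was in 3 of 123 genes called higher (2.44%) and 1 of 55 called lower (1.82%), against 0.768% of tested genes and 1.33% of all promoters. It was in 0 of the 12 tested list members with a promoter. At such shares these counts of 3, 1 and 0 are too small to read. The sterol element TCACCCCAC was in 1 of the 13 called sterol genes with a promoter and in 0.425% of all. That promoter is shown because SREBF2 encodes the factor of the pathway, from RefSeq on GRCh38.p14, with the match in capitals.
SREBF2 chr22:41832855-41833154 plus strand: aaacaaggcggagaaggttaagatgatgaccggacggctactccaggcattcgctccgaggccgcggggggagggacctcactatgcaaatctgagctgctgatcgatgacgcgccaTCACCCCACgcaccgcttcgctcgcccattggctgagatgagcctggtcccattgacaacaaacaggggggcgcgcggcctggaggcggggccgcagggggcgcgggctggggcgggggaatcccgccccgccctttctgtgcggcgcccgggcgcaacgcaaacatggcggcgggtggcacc
The match began 133 bases before the gene start.

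Genes of the actin cytoskeleton and of SRF and YAP signalling were called lower for 3 of 23 members, 0 higher, with a median of -0.12. The shares of all tested genes were 0.534% lower and 1.16% higher. TAGLN, the actin-binding transgelin (chromosome 11, 117199321 to 117204782), had 16.8, 19.4 and 18.01 CPM with DLPC, 31.01, 35.6 and 29.9 CPM with ethanol, 27.4, 29.8 and 26.4 CPM with 10CA and 31.3, 30.9 and 29.1 CPM with DMSO. All DLPC libraries were below all others. Its difference was -0.70 (-0.91 to -0.49), with -0.83 for DLPC and -0.13 for 10CA. CYR61, a matrix-associated YAP target, differed by -0.63 and EGR1, an immediate early transcription factor, by -0.81 (-1.21 to -0.40), and in both the DLPC response was negative (-0.46 and -0.48) and the 10CA response positive (0.17 and 0.32); the 10CA values were not called. CTGF (0.10), another YAP target, and ACTB (0.037), cytoplasmic actin, did not pass. ACTA1, skeletal muscle actin, which is not in the list, was called lower (-0.70); reads of actin genes can be shared between close copies. EGR1 was called in 3 of 12 fits that left out a library and ACTA1 in 4 of 12. No member was called without the block.

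Further genes called lower included DKK1, a secreted Wnt inhibitor. It had 96.2, 92.2 and 85.6 CPM with DLPC, 130.5, 135 and 119 CPM with ethanol, 154, 127 and 117 CPM with 10CA and 129, 119 and 106 CPM with DMSO, and its DLPC libraries were below all others. The difference was -0.65 (-0.83 to -0.48), of which -0.49 came with DLPC and 0.17 with 10CA. SCGN, the calcium-binding secretagogin, averaged 24.3 ± 1.37 CPM with DLPC, 37.7 ± 1.76 CPM with ethanol, 35.4 ± 1.59 CPM with 10CA and 38.3 ± 2.36 CPM with DMSO (SD, n = 3 each), a difference of -0.52 that was also called without the block. GATA6, an endodermal transcription factor (-0.64), the tetraspanin TSPAN8 (-0.66), ODAM (-0.52), the adaptor SH2D4A (-0.50) and the kinase JAK3 (-0.49) were also called lower. Of the fits that left out a library, 11 of 12 called ODAM, 6 of 12 GATA6, 5 of 12 JAK3, 3 of 12 TSPAN8 and 1 of 12 SH2D4A.

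**Figure D4:**
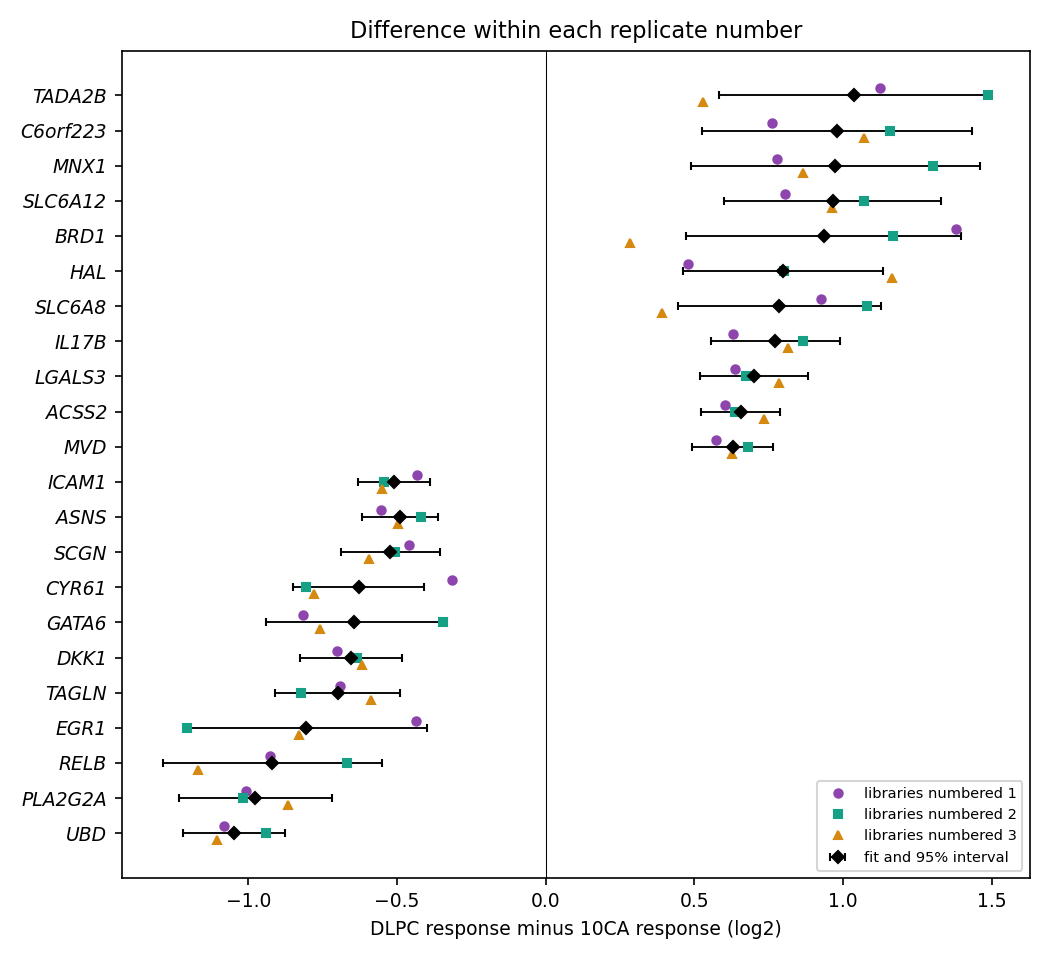
Difference of responses (log2, DLPC minus 10CA) of 22 named genes: coloured points are the values within replicate numbers 1, 2 and 3, black diamonds the fit and bars its 95% interval. The points of UBD, ICAM1, MVD and ACSS2 are close together, while TADA2B, BRD1 and SLC6A8 are lowest in number 3.

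Several of the largest positive differences had most of their size in the vehicles. The difference equals DLPC against 10CA minus ethanol against DMSO, and for 31 of the 250 genes (22 higher, 9 lower) the vehicle term was the larger in size. TADA2B, an adaptor of the SAGA acetyltransferase complex (chromosome 4, 7041899 to 7057952), had 19.1, 23.7 and 19.5 CPM with DLPC, 9.93, 10.2 and 15.2 CPM with ethanol, 20.2, 20.3 and 15.1 CPM with 10CA and 22.99, 24.7 and 16.9 CPM with DMSO. Ethanol 1 and 2 were the lowest libraries, ethanol 3 stood beside 10CA 3, and the other groups overlapped. Its difference of 1.04 was made of 0.16 for DLPC against 10CA, not called, and -0.88 for ethanol against DMSO (adjusted p = 0.0375 by edgeR's quasi-likelihood test).

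SLC6A8, the creatine transporter (chromosome X, 153688099 to 153696593), had 638, 562 and 579 CPM with DLPC, 327, 285 and 419.6 CPM with ethanol, 624, 480.2 and 483 CPM with 10CA and 607, 514 and 459 CPM with DMSO. Ethanol was again the low group, with -0.62 against DMSO (adjusted p = 0.0375 by edgeR's quasi-likelihood test), and DLPC against 10CA gave 0.17. BRD1, a scaffold of acetyltransferase complexes, gave 0.94 with a vehicle term of -0.70. RNF19B, a ubiquitin ligase, gave 0.97 with -0.84, and the homeobox gene MNX1 0.97 with -0.68. C2orf72 gave 0.78 with -0.54. In these 6 genes DLPC against 10CA was between 0.13 and 0.29 and not called. TADA2B was called in 7 of 12 fits that left out a library, SLC6A8 in 8 of 12, C2orf72 in 7 of 12, MNX1 in 4 of 12, BRD1 in 3 of 12 and RNF19B in 2 of 12. Over all 250 called genes the median size of the vehicle term was 0.059.

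**Figure D5:**
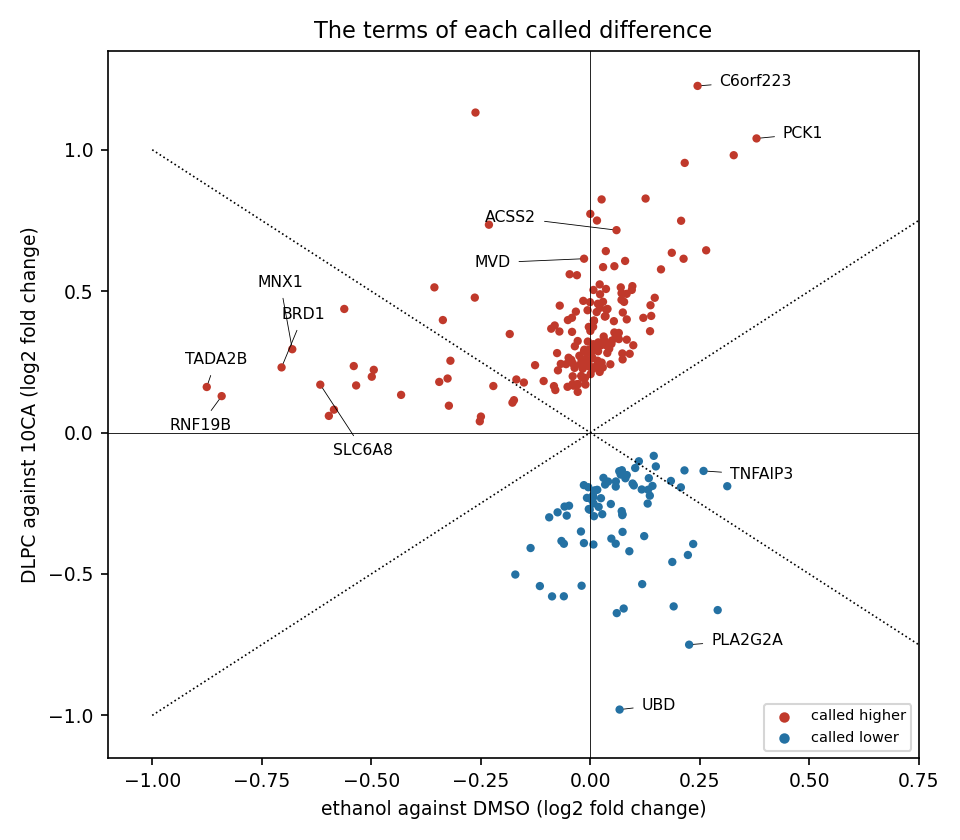
Each called gene with a mean of at least 1 CPM, except the pseudogene ARMCX7P, by its log2 fold change for ethanol against DMSO (horizontal) and for DLPC against 10CA (vertical); dotted lines mark equal size. Points left and right of the dotted cross, such as TADA2B, RNF19B, BRD1 and SLC6A8, have the larger term in the vehicles (-0.88 against 0.16 for TADA2B), and UBD, PLA2G2A, ACSS2 and MVD have it in the compounds.

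A positive difference with a vehicle term of 0.00016 was found for IL17B, a cytokine of the interleukin-17 family (chromosome 5, 149371324 to 149404202). It had 37.3, 31.2 and 34.2 CPM with DLPC, 27.1, 22.6 and 24.5 CPM with ethanol, 21.8, 18.6 and 19.7 CPM with 10CA and 24.6, 24.6 and 24.8 CPM with DMSO. DLPC was above ethanol and 10CA below DMSO without overlap. Its difference was 0.77 (0.55 to 0.99), with 0.47 for DLPC and -0.30 for 10CA, the 10CA value not called (adjusted p = 0.0974 by edgeR's quasi-likelihood test). LGALS3, which encodes galectin-3, had 72.3, 45.5 and 63.99 CPM with DLPC, 48.2, 30.2 and 37.7 CPM with ethanol, 39.8, 28.7 and 33.5 CPM with 10CA and 41.3, 30.4 and 33.98 CPM with DMSO. Number 2 was low in every group, and the within-number differences were 0.64, 0.67 and 0.78. DOCK6, an exchange factor for Rac and Cdc42, differed by 0.61 (0.46 to 0.76), with 0.58 for DLPC and -0.026 for 10CA. SLC6A12, the betaine transporter, differed by 0.97, HAL, the histidine ammonia-lyase, by 0.80, C6orf223 by 0.98 and SDK1, an adhesion molecule, by 0.87, of which C6orf223 was called in 6 of 12 fits without a library and SDK1 in 3 of 12. HAL had 36.5, 14.5 and 29.1 CPM with DLPC, 24.9, 9.55 and 14.4 CPM with ethanol, 18.96, 9.82 and 15.5 CPM with 10CA and 18.01, 11.3 and 17.3 CPM with DMSO, with number 2 lowest in every group.

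In 47 called genes the response to 10CA was the larger. GNMT, which uses S-adenosylmethionine to methylate glycine (chromosome 6, 42960758 to 42963880), had 15.2, 16.6 and 15.9 CPM with DLPC, 12.8, 14.3 and 13.5 CPM with ethanol, 10.2, 10.5 and 11.7 CPM with 10CA and 14.04, 13.9 and 13.6 CPM with DMSO. The 10CA libraries were below all others and the DLPC libraries above them. Its responses were 0.23 to DLPC and -0.36 to 10CA, neither called, and the difference was 0.59 (0.34 to 0.83, adjusted p = 0.00994 by edgeR's quasi-likelihood test). GPR143, a receptor of melanosomes, is low here and differed by 1.00, with -0.75 for 10CA. TRIM73, which has close copies on the same chromosome so that reads may be shared, differed by 0.46, with -0.39 for 10CA, and TMEM234 by 0.73. Leaving out a library kept the call of GPR143 in 7 of 12 fits, of TMEM234 in 6 of 12 and of TRIM73 in 2 of 12. ARMCX7P, a pseudogene with 1 of 3 libraries at 0 with 10CA, was called higher, and its level was 2.05, 1.69 and 1.53 CPM with DLPC, 1.41, 2.49 and 1.08 CPM with ethanol, 0.837, 0.183 and 0 CPM with 10CA and 2.43, 1.97 and 2.19 CPM with DMSO. Among the 10 genes called with 10CA alone, RSL24D1, a factor of ribosome assembly, was chosen after its values were seen: it had 51.9, 50.4 and 55.2 CPM with DLPC, 55.6, 53.1 and 59.3 CPM with ethanol, 59.4, 61.7 and 59.9 CPM with 10CA and 51.1, 49.9 and 52.2 CPM with DMSO, a difference of -0.33.

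Secreted liver proteins were mixed. Over all tested genes 1.16% were called higher and 0.534% lower, so a count of 0 or 1 in a short list says little about that list. Of 18 acute phase genes 1 was called higher and 2 lower, with a median of -0.038. SAA4, a constitutive serum amyloid A, had 61.3, 64.6 and 56.03 CPM with DLPC, 46.2, 48.7 and 47.6 CPM with ethanol, 38.04, 36.3 and 33.9 CPM with 10CA and 40.9, 44.9 and 37.8 CPM with DMSO, highest with DLPC, and differed by 0.54 (0.37 to 0.71). SERPINA3, the antichymotrypsin, had 228, 222 and 219.9 CPM with DLPC, 303, 297 and 294 CPM with ethanol, 316, 282 and 281 CPM with 10CA and 310.1, 302 and 291 CPM with DMSO, lowest with DLPC, and differed by -0.38 (-0.50 to -0.25). Haptoglobin (HP), which has a close paralog, gave -0.38 with DLPC and -0.17 with 10CA, a difference of -0.21 that was called in 2 of 12 fits without a library. Of 26 coagulation and complement genes SERPINF2, the antiplasmin, was called higher (0.30) and CFI, which inactivates complement, lower (-0.27). In xenobiotic metabolism UGT2B10 was called lower (-0.43), 1 of 20, and among NRF2 targets AKR1B10 (-0.42), 1 of 19; both have close relatives that can share reads. LXR targets had 2 of 13 called higher (APOC1 and LPCAT3), acetyltransferase and arginine methyltransferase genes 2 of 33 (TADA2B and BRD1), and hepatocyte markers 1 of 15 (APOA2), each with 0 lower. These counts were unstable: without the block each was 0. For the LXR list the count was 0 without DMSO 3 or 10CA 2, 2 without DMSO 1 and 1 without each of the other libraries. For the acetyltransferase list it was 0 without DMSO 2, 10CA 3, ethanol 1, ethanol 2 or DLPC 2 and 1 without DMSO 1, 10CA 2, DLPC 1 or DLPC 3. For the hepatocyte markers it was 0 without DMSO 2, DMSO 3, 10CA 2 or DLPC 2 and 2 without 10CA 1. The 25 genes of DNA replication and mitosis, the 13 mitochondrial mRNAs and the 13 hepcidin and BMP-SMAD genes had 0 called in the difference, with medians of -0.088, 0.081 and -0.0017. Of the DNA replication and mitosis genes 22 had a negative difference and 3 a positive one (7316 and 7481 over all tested genes). In DLPC against ethanol 5 of these genes were called. For the mitochondrial mRNAs both compounds gave lower medians than their vehicles, -0.078 for DLPC and -0.17 for 10CA, and MT-CO3, at 508 ± 34.05 CPM with DLPC, 566 ± 52.6 CPM with ethanol, 461 ± 25.8 CPM with 10CA and 559 ± 29.4 CPM with DMSO, had a difference of 0.12 (-0.027 to 0.27).

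The precision of the difference limits which genes could be called. Over the 10691 genes above 5 CPM the 95% interval reached a median of 0.17 on the log2 scale to either side, and for 91.5% of them it lay within 0.5 of 0, that is within 1.41-fold. A gene outside the 250 is not shown to respond alike to both compounds.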

How the data were processed

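RNA-seq of HepG2 cells gave 18 libraries, of which 12 enter the difference. Per the labels' protocols, cells were lysed in RLT buffer and Nextera XT libraries of amplified cDNA were sequenced as single-end reads. The deposited table holds raw read counts per gene symbol, which the authors made on GRCh38. GRCh38 and DESeq2 are named in the submitters' processing notes without a version, and for the aligner, the counter and strandedness nothing is given in the sources used here. Overlapping and antisense genes can therefore not be told apart, and reads of near-identical copies may be shared.

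Counts were analysed as deposited with edgeR 4.0.16 in R 4.3.3. Genes passing filterByExpr by group (minimum count 10, minimum total 15) were kept, which left 14797 of 35238 genes and 99.96% of counts. All 18 libraries entered a single quasi-likelihood fit with TMM scaling, a mean per group and the replicate number as a block. The contrast (DLPC minus ethanol) minus (10CA minus DMSO) and each response were tested two-sided, with Benjamini-Hochberg adjustment over all tested genes and a threshold of 0.05. The block was part of the comparison as set, and same-numbered samples also deviated together. Over the 18 same-numbered pairs of the 4 groups the correlation of deviations from the group mean was 0.152 to 0.510. Over the 36 pairs of different number it was -0.440 to 0.0206. Deviations sum to 0 within a group, so the second range follows in part from the first. The labels do not say what a number marks. Per gene, 3 counts, the floor for a count of 0, are 0.0868 to 0.107 CPM, which covers counting error only.

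The comparison, its gene lists and its tests were chosen with earlier results of these data known. Genes named are those called with a mean of at least 1 CPM among the 15 largest differences in each direction, the 8 smallest p-values, the 6 largest responses to 10CA among genes where 10CA gave the larger response, and up to 4 called members per list, with NR5A2. Other list members are given with their values to show how members differ and were picked once their values had been seen. A few genes falling under this rule are not reported here. CPM of single genes used library totals adjusted by the TMM scaling. The marker sums, LYZ, CD68 and the floor used plain totals. Values within a replicate number used log2 CPM with a prior count of 2. Gene positions are from GENCODE on GRCh38, matched by symbol, and promoters are from RefSeq on GRCh38.p14. Promoters were matched for 10544 of the tested genes. The fit was tested on simulated data. Alternatives were no block, the 12 libraries alone, RLE and upper quartile scaling, no filter, a minimum mean CPM of 1, DESeq2 1.42.0, limma 3.58.1 with voom, both vehicles pooled, and leaving out each library or number.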

Additional observations from a re-analysis of the deposited data

Results flagged for a closer look

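In 4 genes the responses to DLPC and to 10CA both passed their own test and had opposite signs, and their difference passed too. That difference is made of the same responses, so its call was nearly fixed by theirs and is not separate support. The difference (log2, DLPC minus 10CA) was -0.4893 for ASNS, -0.3307 for MTHFD2, 0.28 for PCYT2 and -0.2864 for PSAT1. PCYT2 was also called without the replicate block, and ASNS, MTHFD2 and PSAT1 were not. Ethanol against DMSO was 0.12 for ASNS, 0.14 for MTHFD2, 0.0015 for PCYT2 and 0.10 for PSAT1, none called, and DLPC against 10CA directly was called in all 4 (edgeR's quasi-likelihood test). The doses also differ, and the part of dose was not tested.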

How the results depend on the processing

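Without the replicate block, edgeR's quasi-likelihood test called 16 genes in the difference (10 higher, 6 lower), against 250 (171 and 79) with it. For the responses it called 154 with DLPC, 0 with 10CA (1033 at an unadjusted p under 0.05, and 181 called by DESeq2 with the block) and 0 between the vehicles (479 at an unadjusted p under 0.05, and 35 by DESeq2 with the block). With no low-count filter the counts were 547 (348 higher, 199 lower) for the difference, 382 for 10CA and 170 for the vehicles. Pooling both vehicles, which compares DLPC with 10CA directly, gave 1466 (844 and 622). DESeq2 called 119 lower. With the 12 libraries alone 10CA had 109 and the vehicles 32, with a minimum mean of 1 CPM 50 and 31, and with limma-voom the vehicles had 30. Leaving out a library gave 139 to 231 calls (89 to 154 higher, 43 to 77 lower), and leaving out a replicate number gave 43 to 94 (26 to 70 higher, 17 to 24 lower). For the responses, leaving out a library or number gave 331 to 1026 with DLPC, 0 to 61 with 10CA and 0 to 33 between the vehicles. The DLPC count was 422 without DLPC 1, 516 without ethanol 3 and 609 without ethanol 2. The 10CA count was 61 without DMSO 1, 8 without DMSO 2, 12 without DMSO 3, 7, 10 and 4 without 10CA 1, 2 and 3, and 18 without ethanol 2. For NR5A2 the sign turned without DMSO 2 (0.029), 10CA 2 (0.0011), ethanol 3 (0.072), replicate number 2 (0.078) and replicate number 3 (0.015), over a range of -0.46 (without replicate number 1) to 0.078. Of the 73 named called genes, 61 lost their call without the block, 10 with pooled vehicles and 6 with DESeq2. Whichever library was left out, 41 were called. None changed sign in any alternative run. All 250 called genes had the sign of the fit within each of the 3 replicate numbers. A kept sign therefore adds little where a library or number is left out. Leaving out replicate number 1, 2 or 3 ended the call of 37, 51 and 32 of the 73. The cause was not tested. For a gene that did not pass, its 95% interval gives the sizes of difference that these 3 libraries a group leave possible.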
